A study of Mus musculus with 3 samples.

Results

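Mural cells are the cells that wrap blood vessels, and stromal cells are the fibroblasts of the vessel sheath and the meninges. The cells described here are those with a mural or stromal profile in the vascular cluster of brains that bore metastases. They were chosen by a rule. A cell had to lie in cluster 6 of the submitters' clustering of metastasis-bearing brains, and its barcode had to be missing from the table of naive brains. Its mean value of 4 mural genes (Rgs5, Vtn, Pdgfrb and Acta2) had to be at least that of 4 endothelial genes (Cldn5, Flt1, Pecam1 and Ly6c1). The rule found 110 cells, among 454 used cells of that cluster and 11179 used cells of the whole series. Before barcodes found in both tables were dropped, the cluster had 522 cells and both tables together 13455. The other 344 used cells of the cluster lie on the endothelial side of the rule and are called the rest of the cluster.

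The cells came from female C57Bl/6 mice of 2 to 3 months, and 1 hemisphere per brain was used. Every mouse carried at least 1 lost allele of Cx3cr1, the receptor for fractalkine, so that no group was wild type. The metastasis-bearing groups, 2 Cx3cr1+/- and 2 Cx3cr1-/- mice, had received the E0771 mammary tumour line through the carotid artery some 2 weeks before. The naive groups, used here only for values set side by side, were 2 Cx3cr1+/- and 2 Cx3cr1-/- mice without tumour cells. Suspensions had been enriched for immune cells on Percoll, so that vessel cells are what passed that step, and shares of cells do not stand for their shares in the tissue. The submitters labelled the samples as brain immune cells, and the members go against that label: Ptprc, the gene of the leukocyte protein CD45, stood at 53.2 ± 49.9 corrected UMIs per 1000000 (CPM; a UMI is a barcoded RNA molecule; SD, n = 4 brains) in them and at 685 ± 61.2 CPM in cluster 2, which held T cell genes.

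The vessel wall of the brain holds 3 kinds of supporting cell. Smooth muscle cells ring arteries and arterioles and contract through smooth muscle actin and myosin. Pericytes sit on capillaries inside the basement membrane and hold ATP-sensitive potassium channels and the PDGF receptor beta, which keeps them on the vessel. Fibroblasts lie around larger vessels and in the meninges and make fibrillar collagen and proteoglycans.

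Every brain was told apart by a hashtag, an antibody that carries a short DNA barcode, and 35 further antibodies marked surface proteins. The sequences below are the barcodes on which this account rests. They are the hashtags of the 4 metastasis-bearing brains and the tags for CD45, carried by leukocytes, and CD11b, carried by myeloid cells. All letters are in capitals because the whole barcode is read, 5′ to 3′.
Hashtag of Cx3cr1+/- brain 1: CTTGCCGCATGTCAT
Hashtag of Cx3cr1+/- brain 2: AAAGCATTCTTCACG
Hashtag of Cx3cr1-/- brain 1: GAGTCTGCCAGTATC
Hashtag of Cx3cr1-/- brain 2: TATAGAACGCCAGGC
CD45 tag: TGGCTATGGAGCAGA
CD11b tag: TGAAGGCTCATTTGT

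Cx3cr1 checked the genotype labels in cluster 3, whose 654 cells carried the microglial genes P2ry12 and Tmem119. It stood there at 1363 and 1464 CPM in the Cx3cr1+/- brains, and at 114 and 31.6 CPM in the Cx3cr1-/- brains. The members themselves held 20.2, 36.6, 20.4 and 0 CPM of Cx3cr1, too little for such a check. Lists of 4 values are given throughout in the order Cx3cr1+/- brain 1, Cx3cr1+/- brain 2, Cx3cr1-/- brain 1 and Cx3cr1-/- brain 2. Levels are RNA molecules after the submitters' correction for depth, summed over the cells of a brain and scaled to 1000000. A ratio is a geometric mean over brains of ratios of CPM + 10, which understates the change of low genes. In all, 57, 25, 12 and 16 members came from the 4 brains. Their median depth was 9325, 9250, 22618.5 and 22787.5 raw UMIs. The members of Cx3cr1-/- brain 1 therefore rest on few cells.

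The rule worked on RNA values, so every RNA difference between the members and the rest of the cluster, or among the members, is a description without a test. The difference between the mural and the endothelial mean, on the natural log scale, reached down to 0 among members, and the closest cell outside stood at -0.0159. Of the members, 55 stood more than 0.5 above the cut and 55 within 0.5 of it. Another 29 cells lay within 0.5 below it. For 15 members all 8 genes were 0, so that they passed by a tie, and all 15 were fibroblast-led cells as defined next.

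Each member was assigned to whichever of 3 marker lists (smooth muscle, fibroblast, pericyte) had the highest mean natural log value in it. Of the 110 members, 45 were smooth muscle-led, 50 fibroblast-led and 15 pericyte-led. In 8 members the leading list was less than 0.25 above the next one. Smooth muscle-led cells had a median of 3.05 for the smooth muscle list and 0.179 for the fibroblast list. Fibroblast-led cells had medians of 0.161 and 1.69. Pericyte-led cells had a median of 1.51 for the pericyte list. The assignment itself sets these medians apart.

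**Figure D1:**
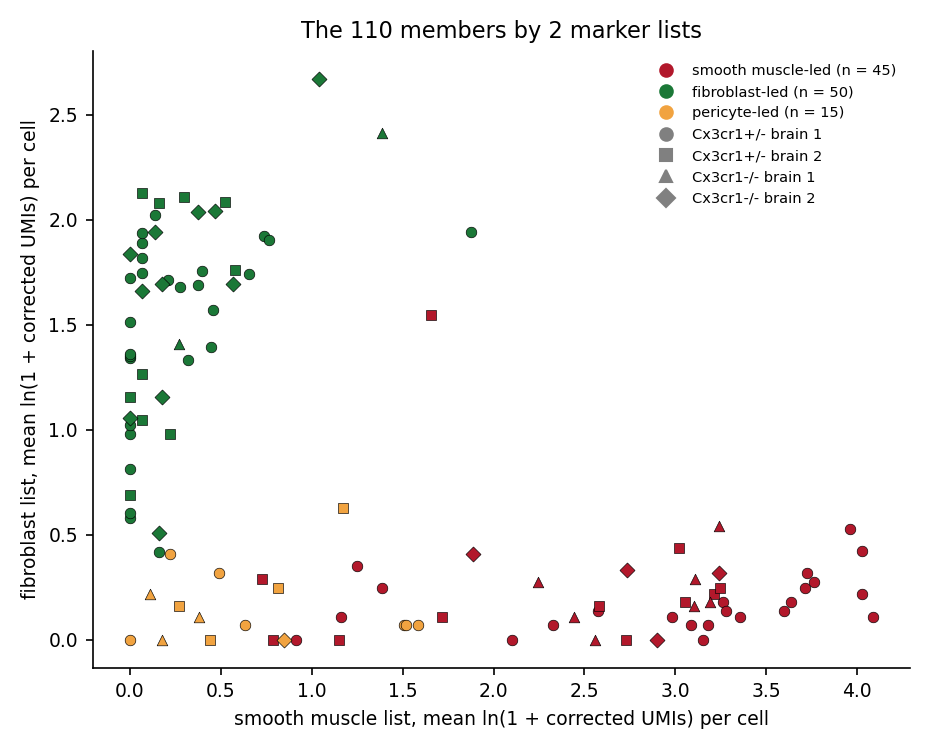
Each point is 1 of the 110 members, placed by its mean ln(1 + corrected UMIs) over the smooth muscle list (x axis) and over the fibroblast list (y axis); colour gives the leading list and marker shape the brain. The 45 smooth muscle-led cells spread along the x axis and the 50 fibroblast-led cells along the y axis, and the 15 pericyte-led cells are low on the fibroblast list, with a median of 0.0693.

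The marker lists were read as a check of the name. Of 10 smooth muscle markers, 9 were at least 2-fold above the rest of the cluster in every brain, as were 7 of 9 fibroblast markers above 10 CPM, and 1 of 12 pericyte markers. Over all genes, 275 of 9134 met that rule, which is 3.01%. All 10 endothelial markers were at least 2-fold below the rest in every brain, against 4.22% of all genes. With the 8 genes of the rule set aside, the counts were 8 of 9 smooth muscle, 7 of 9 fibroblast, 1 of 9 pericyte and 6 of 6 endothelial markers. The choice of members used these cells' RNA, so the counts describe what the rule collected: smooth muscle and fibroblast markers stood out in it and most pericyte markers did not.

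Smooth muscle genes were high in members of every brain. Acta2, the actin of smooth muscle, was at 7272, 4181, 7914 and 3082 CPM in members and at 177, 244, 39.2 and 219 CPM in the rest, and the sets did not overlap. The ratio had a geometric mean of 34.4 (5.10 ± 1.63 on the log2(CPM + 10) scale, SD, n = 4 brains), and the log2 value was 7.34 with cells more than 0.5 from the cut, which Acta2 helps to set. Tagln, which binds actin filaments, was at 6177, 3142, 5833 and 3190 CPM against 157, 192, 34.5 and 205 CPM, a ratio of 32.6. Members made up 24.2% of the cluster's cells and held 92.4% of its Acta2 and 92.2% of its Tagln molecules. In cluster 2 Acta2 stood at 3.77 ± 2.06 CPM (SD, n = 4 brains).

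Contractile genes were high in the smooth muscle-led cells. Their Acta2 level was 17891, 10005, 12517 and 13392 CPM, and in fibroblast-led cells it was 145, 0, 1755 and 33.7 CPM. The value of 1755 comes from the 2 fibroblast-led cells of Cx3cr1-/- brain 1, so comparisons of the 2 kinds below use the 3 brains with at least 4 cells of each. All 20 genes of the contractile list were at least 2-fold higher in smooth muscle-led than in fibroblast-led cells in each of these brains, against 3.25% of 8848 genes. Of these, 9 belong to the list that defined the smooth muscle-led cells, and all 11 others also met the rule; the grouping used these cells' RNA, so nothing further is read from the counts of the kinds. Myh11, the myosin heavy chain of smooth muscle, stood at 4224, 1807, 2241 and 2599 CPM in smooth muscle-led cells and at most at 50.3 CPM in fibroblast-led cells. Cnn1, a calponin that restrains actomyosin, was at 780, 178, 583 and 286 CPM and at 0 in the fibroblast-led cells of every brain. Pln, which restrains the calcium pump, was at 914, 654, 515 and 969 CPM against at most 2.96 CPM. Lmod1, which seeds actin filaments, was 51.2-fold and Des, an intermediate filament, 20.1-fold higher.

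Several contractile genes are known targets of serum response factor, which binds the CArG box, and so their promoters were searched for that motif in RefSeq windows of GRCm38.p6 from 250 bases before to 50 after the transcription start. The motif reads as a CArG box on both strands at once, so 1 search covers both. Of 20 contractile genes, 16 had a window, and 3 of these (Myl9, Vcl and Myl6) held an exact CArG box, against 1.81% of 27025 genes with a window. With at most 1 letter off, 8 of 16 held one, against 23.8% of all genes. Of 13 interstitial matrix genes with a window, 0 held an exact box and 6 one with at most 1 letter off. A match is a stretch of letters and not a shown binding site. The windows of Acta2, Myl9, a myosin light chain, and Vcl, which links actin to adhesions, are printed because Acta2 defines these cells and the other 2 hold exact boxes. Capitals mark each stretch that is a CArG box or 1 letter off. No other motif was searched.
Acta2 (chr19:34255324-34255623, minus strand): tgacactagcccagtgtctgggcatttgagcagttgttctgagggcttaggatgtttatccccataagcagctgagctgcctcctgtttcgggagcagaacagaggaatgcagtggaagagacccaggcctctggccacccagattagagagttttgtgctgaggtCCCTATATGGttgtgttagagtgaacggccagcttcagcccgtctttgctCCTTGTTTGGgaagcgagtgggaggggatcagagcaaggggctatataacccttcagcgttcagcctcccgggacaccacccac
Myl9 (chr2:156775214-156775513, plus strand): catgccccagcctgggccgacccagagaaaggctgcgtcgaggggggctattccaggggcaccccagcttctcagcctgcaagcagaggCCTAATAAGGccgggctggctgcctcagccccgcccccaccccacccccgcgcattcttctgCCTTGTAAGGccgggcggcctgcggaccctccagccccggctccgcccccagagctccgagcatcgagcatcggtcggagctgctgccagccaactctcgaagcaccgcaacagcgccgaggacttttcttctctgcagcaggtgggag
Vcl (chr14:20929148-20929447, plus strand): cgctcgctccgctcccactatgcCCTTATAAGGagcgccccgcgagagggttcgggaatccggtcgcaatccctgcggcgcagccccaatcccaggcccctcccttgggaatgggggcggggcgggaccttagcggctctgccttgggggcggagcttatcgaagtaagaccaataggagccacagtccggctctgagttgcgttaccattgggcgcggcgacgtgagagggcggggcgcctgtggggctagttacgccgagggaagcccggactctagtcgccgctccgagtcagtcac
The Acta2 window held 2 stretches with 1 letter off and no exact box. In Myl9 the exact box began 161 bases before the start, and in Vcl 227 bases before it. Myl9 stood at 2937, 1632, 2298 and 1168 CPM in members and at 187, 231, 96.7 and 173 CPM in the rest. Vcl differed less, with 211, 170, 95.2 and 133 CPM against 105, 79.9, 90.9 and 106 CPM, and those ranges overlapped.

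Signalling lists differed in how they split between the kinds. Notch3, the Notch receptor of mural cells, was at 337, 250, 247 and 418 CPM in smooth muscle-led cells and at 23.7, 0, 149 and 20.2 CPM in fibroblast-led cells. Its target genes Heyl and Hey2 were 6.50-fold and 10.1-fold higher in smooth muscle-led cells. In the whole Notch list, 4 of 10 genes were at least 2-fold higher in smooth muscle-led cells and 0 lower. Over all 8848 genes, 3.25% were higher by that rule and 7.08% lower. Without the genes of the member rule and of the 3 marker lists, 3 of 9 Notch genes were higher and 0 lower. In whole lists, the counts were 0 and 1 of 25 for TGF-beta and BMP genes, 0 and 1 of 9 for angiopoietin and VEGF genes and 1 and 1 of 8 for PDGF genes. These are for smooth muscle-led and fibroblast-led cells in that order. Of 13 genes for channels, pumps and vasoactive receptors, 7 were higher by that rule in smooth muscle-led cells and 0 lower. With the same genes set aside, these were 7 of 10. They include Rgs4, a brake on G protein signals (17.5-fold), Gucy1a1, a subunit of the nitric oxide sensor (7.45-fold), and Gja4, a gap junction protein, which had 257, 307, 224 and 374 CPM against 29.6, 0, 0 and 20.2 CPM. Pericyte-led cells, summed, held 398 CPM of Notch3 and 271 of Gucy1a1, against 309 and 210 CPM in smooth muscle-led cells. Mcam, an adhesion molecule of vessel cells, was 18.5-fold higher in smooth muscle-led than in fibroblast-led cells. Pdgfa, a PDGF ligand, was 5.98-fold higher in smooth muscle-led cells. Pdgfra, the receptor that marks fibroblasts, was 8.68-fold higher in fibroblast-led cells, though only 1.58-fold in the brain with the lowest ratio. Pdgfra is on the fibroblast list that assigned the cells, so the assignment itself favours that direction. Pdgfrb, its partner receptor and a gene of the rule, was at 178 CPM in smooth muscle-led, 134 in fibroblast-led and 735 in pericyte-led cells.

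Interstitial matrix genes were high in fibroblast-led cells. Dcn, a collagen-binding proteoglycan, was at 2572, 3225, 7469 and 2664 CPM in them and at 0, 1186, 0 and 0 CPM in smooth muscle-led cells. The value in smooth muscle-led cells of Cx3cr1+/- brain 2 was the exception to 0. Col1a1, a chain of type I collagen, was at 698, 866, 1867 and 1443 CPM against 0, 40.3, 0 and 0 CPM. Mgp, an inhibitor of calcification, was at 23875, 12378, 47466 and 33034 CPM against 2099, 1509, 1098 and 1167 CPM, and neither of these sets of values overlapped. In the fibrillar and interstitial matrix list, 14 of 23 genes were at least 2-fold higher in fibroblast-led cells in each of the 3 brains and 1 was lower. The background for the fibroblast direction was 7.08% of 8848 genes. Without the 5 genes shared with the fibroblast list, 10 of 18 were higher. Eln, elastin, was the gene with the opposite direction, 6.25-fold higher in smooth muscle-led cells of the 3 brains. In Cx3cr1-/- brain 1, with its 2 fibroblast-led cells, Eln was at 78.4 CPM in smooth muscle-led and 1382 CPM in fibroblast-led cells. In the basement membrane list both directions occurred: 3 of 16 genes were higher in smooth muscle-led cells and 4 in fibroblast-led cells. The background for the smooth muscle direction was 3.25% of 8848 genes. Col4a1 and Col4a2, the main type IV collagen chains, were 2.60-fold and 3.46-fold higher in smooth muscle-led cells. In Cx3cr1-/- brain 1, left out of these folds, Col4a1 was at 605 against 1083 CPM and Col4a2 at 370 against 261 CPM in fibroblast-led cells. Lama2, a laminin chain, was 5.21-fold higher in fibroblast-led cells.

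The genes that set fibroblast-led cells most apart, named after their values were seen, were 1500015O10Rik, Sfrp4, Prg4, Fbln1 and Col1a1. Prg4, the lubricant proteoglycan lubricin, was at 5440, 30.6, 1307 and 2334 CPM in fibroblast-led cells and at 0 in the smooth muscle-led cells of every brain, and so it varied widely between brains. Sfrp4, an inhibitor of Wnt signals, was at 479, 628, 0 and 1066 CPM. Cldn11, a claudin of tight junctions in the arachnoid layer and in myelin, was at 538, 314, 672 and 1147 CPM. The matrix proteases Mmp3 and Mmp13 were uneven: Mmp3 was at 207, 0, 336 and 803 CPM, and Mmp13 at 14.8, 7.66, 0 and 1443 CPM, so that nearly all of Mmp13 lay in 1 brain. Igfbp5 and Igfbp6, which bind insulin-like growth factors, were 22.6-fold and 39.6-fold higher than in smooth muscle-led cells. Col1a1 and Igfbp6 are on the fibroblast list that assigned the cells. Igfbp7, of the same family, had the opposite direction, 2.92-fold higher in smooth muscle-led cells.

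**Figure D2:**
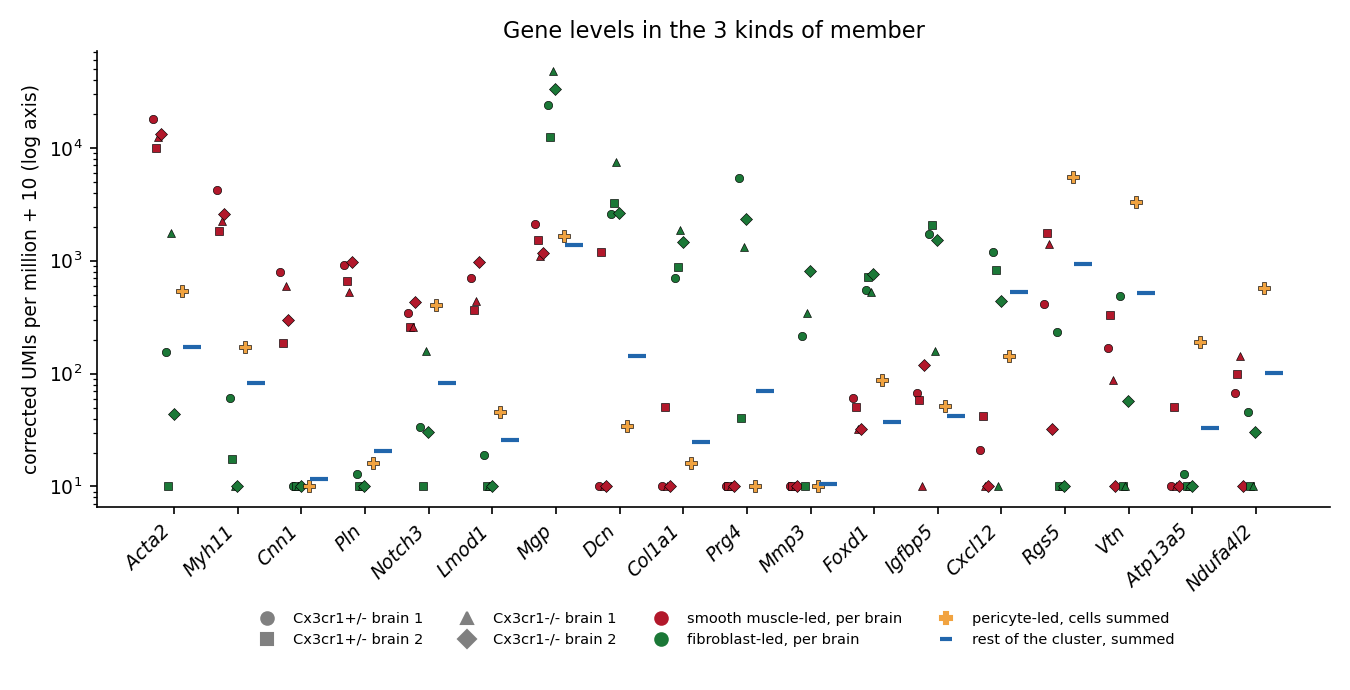
The y axis gives corrected UMIs per 1000000 + 10 on a log axis for 18 genes; red and green points are smooth muscle-led and fibroblast-led cells of each brain, orange crosses the 15 pericyte-led cells summed, and blue bars the 344 other cells of the cluster summed. Acta2, Myh11, Cnn1 and Pln are high in the red points, Mgp, Dcn, Col1a1 and Foxd1 in the green points, and Rgs5, Vtn, Atp13a5 and Ndufa4l2 in the orange cross. All of these except Pln, Mgp and Foxd1 are on the lists that assigned the cells.

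Transcription factors differed between the kinds. Foxd1, a forkhead factor of meningeal and perivascular mesenchyme, was at 538, 712, 523 and 755 CPM in fibroblast-led cells and at most at 50.8 CPM in smooth muscle-led cells. Twist1, a factor of mesenchyme, was 7.06-fold and Foxc2 6.15-fold higher in fibroblast-led cells. Foxs1, a forkhead factor of mural cells, was 11.7-fold and Mef2c 8.15-fold higher in smooth muscle-led cells. Of 16 mural transcription factors above the filter, 4 were at least 2-fold higher in each kind. Over all 8848 genes, 3.25% were higher in smooth muscle-led and 7.08% in fibroblast-led cells by that rule. Foxc1 did not separate them, with 273 CPM in smooth muscle-led, 349 in fibroblast-led and 235 in pericyte-led cells.

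Of 12 chemokine genes, 2 were at least 2-fold higher in fibroblast-led and 0 in smooth muscle-led cells, and of 10 cytokine and adhesion genes 3 and 1. Over all 8848 genes these shares were 7.08% and 3.25%. Cxcl12, a chemokine that holds leukocytes, was at 1183, 820, 0 and 432 CPM in fibroblast-led cells and at 10.9, 32.3, 0 and 0 CPM in smooth muscle-led cells. The rest of the cluster also held Cxcl12, at 472, 546, 662 and 299 CPM. Il33, an alarmin cytokine, stood at 273 CPM in fibroblast-led cells, 3.74 in smooth muscle-led and 25.6 in the rest. Il34, a ligand of the receptor that keeps microglia alive, was at 80.8, 99.9, 88.4 and 83.4 CPM in members against at most 28.1 CPM in the rest, and its highest level, 295 CPM, was in pericyte-led cells. Ccl2, which draws monocytes, was at 150, 326, 88.4 and 294 CPM against 60.5, 34.5, 35.4 and 70.3 CPM. Members and rest did not overlap for either of these genes. Cxcl10, the chemokine of the series' title, was at 167, 353, 20.4 and 1085 CPM in members, a range that took in the 121, 283, 648 and 215 CPM of the rest. Serping1, an inhibitor of complement, was at 317, 396, 408 and 373 CPM against 37.3, 48.6, 16.3 and 28.1 CPM in the rest.

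Most pericyte genes did not set the members apart, although 3 of the 4 genes on the mural side of the rule are pericyte markers. Rgs5, a regulator of G protein signals in pericytes, was at 889, 1129, 2957 and 255 CPM in members and at 847, 1265, 792 and 827 CPM in the rest. The ratio was 1.02 (0.03 ± 1.45 on the log2 scale, SD, n = 4 brains). That log2 value was -1.28 without cells holding a corrected Ptprc or Krt8 UMI and -1.39 in cells of 5000 to under 50000 raw UMIs. Both settings dropped shallow cells: of 22 members under 5000 raw UMIs, 21 held a corrected Ptprc UMI. Of the 15 pericyte-led members described next, 9 were under 5000. With cells more than 0.5 from the cut the log2 value was 0.55. Vtn, vitronectin, was at 659, 900, 435 and 108 CPM against 480, 643, 510 and 366 CPM, and both genes overlapped between members and rest. Kcnj8, the pore of the pericyte potassium channel, was at 11.5, 70.0, 204 and 0 CPM against 30.0, 25.9, 50.7 and 50.2 CPM. Abcc9, its regulatory subunit, had a ratio of 0.867. Members held 27.5% of the cluster's Rgs5 and 28.1% of its Kcnj8 molecules, close to the members' share of its cells. Cspg4, the NG2 proteoglycan shared by pericytes and smooth muscle, was the 1 of 12 pericyte markers at least 2-fold higher in every brain, at 133, 99.9, 150 and 58.9 CPM against 17.7, 39.9, 29.7 and 16.1 CPM. Pdgfrb, a gene of the rule, was also higher in members of every brain. Its log2 ratios over the rest were 1.62, 1.47, 2.12 and 0.71, under 2-fold in Cx3cr1-/- brain 2.

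**Figure D3:**
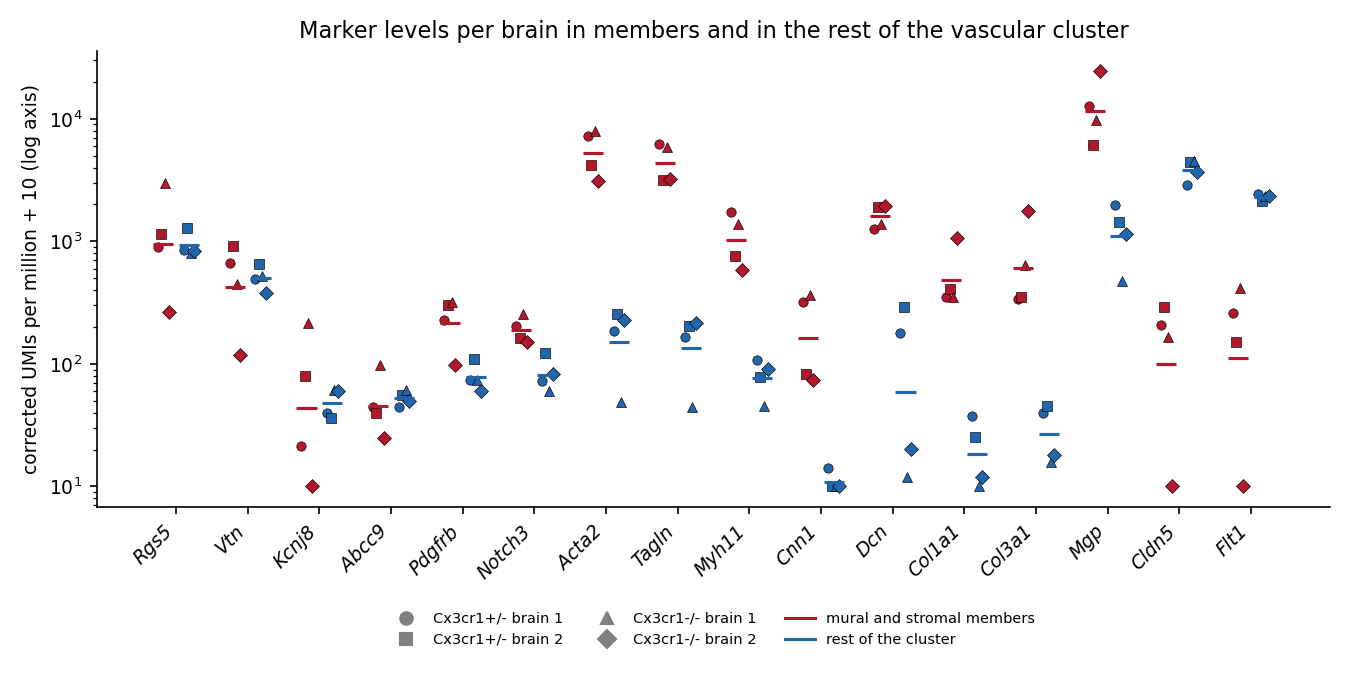
The y axis gives corrected UMIs per 1000000 + 10 on a log axis for 16 marker genes in the members (red) and in the rest of the cluster (blue); each point is 1 brain and each line the geometric mean of 4 brains. Acta2, Tagln, Myh11, Col1a1, Col3a1 and Mgp do not overlap between the colours, while Rgs5, Vtn, Kcnj8 and Abcc9 do.

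The 15 pericyte-led members held the highest pericyte levels, summed over brains without a spread: 5507 CPM of Rgs5, 3332 of Vtn, 735 of Pdgfrb, 560 of Ndufa4l2 and 181 of Atp13a5, a pump of brain pericytes. All of these genes are on the pericyte list that assigned the cells, so the assignment itself sets them high. These cells were shallow, with a median of 3271 raw UMIs, against 9080 in smooth muscle-led and 16829.5 in fibroblast-led cells. In 7 of the 15 the endothelial list had a mean of 1 or more, and those 7 had a median of 7856 raw UMIs against 2271 in the other 8. On the endothelial side of the rule, 43 cells had a pericyte list mean of 1 or more, and all 43 had an endothelial list mean of 1 or more as well. Their Rgs5 level was 4444 CPM and their Cldn5 level 4423 CPM, with a median of 12284 raw UMIs against 7271 in the other 301 cells of that side. Whether these droplets held more than 1 cell was not tested. All carried the submitters' singlet label, which cannot see 2 cells of the same brain.

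The correlations across the 110 members describe the same split. They share libraries and depth, and no p is given. Among 3101 genes above 50 CPM, those most like Acta2 by Spearman's rho were Myl9 (0.91), Tagln (0.90), Myh11 (0.89), Mustn1 (0.87), Lmod1 (0.86), Tpm2 (0.85), Ppp1r14a (0.85), Tpm1 (0.84), Gm13889 (0.84) and Sorbs2 (0.84). Genes among those most like Col1a1 were Col12a1 (0.86), Prrx2 (0.85), Cdh11 (0.85), Efemp1 (0.84), Col1a2 (0.83), Pdpn (0.83), Serpinf1 (0.82), Cldn11 (0.81) and Foxd1 (0.80). The counts of Kcnj8 were too sparse for a reading of its correlations. Acta2 and Col1a1 had a rho of -0.63, and Rgs5 and Vtn one of 0.71.

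The 20 genes with the highest lowest-brain ratio over the rest drew on both main kinds. Contractile genes among them were Tpm2, Tagln, Acta2, Pln and Cnn1. Matrix genes were Fbln1, Col1a2, Col1a1, Col3a1 and Bgn. The others were Serpinf1, Timp1, Nov, Cldn11, Atp1b1, Igfbp2, Ckb, Twist1, Serping1 and Gas1. Nov, a matricellular protein, was at 638, 187, 88.4 and 319 CPM against 6.72, 4.32, 0 and 2.01 CPM. Ckb, a creatine kinase, was at 977, 643, 558 and 726 CPM against 99.6, 80.9, 46.9 and 86.4 CPM, a ratio of 8.38 (3.07 ± 0.22 on the log2 scale, SD, n = 4 brains).

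Surface readouts were independent of the rule. The submitters' gate of low CD45 without CD11b, made from the tags printed above, held 90 of 110 members (81.8%, 95% Wilson interval 73.6 to 87.9%) and 295 of 344 cells of the rest (85.8%, 81.7 to 89.1%). Per brain it held 53 of 57, 15 of 25, 9 of 12 and 13 of 16 members. The share differed from the rest by -8.49 ± 15.5 percentage points (SD, n = 4 brains; two-sided exact permutation test over brains, p = 0.375), within the spread between brains. The smallest p that 4 brains allow here is 0.125. For comparison, the gate held 104 of 1201 cells of cluster 2 and 1 of 654 of cluster 3. Of 50 fibroblast-led cells, 8 were in the gate of low CD45 with CD11b, and of 45 smooth muscle-led cells 0 (upper bound of the 95% Wilson interval 7.87%). The Wilson intervals given for these gates pool cells over brains and cover counting error only.

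Members carried fewer antibody molecules than the rest of the cluster. The median total of surface tag UMIs per cell was 866, 2006, 2284.5 and 1039 in members and 4053, 3844.5, 2412 and 2553 in the rest, lower in members of 4 of 4 brains. The ratio was 0.455 (-1.14 ± 0.89 on the log2 scale, SD, n = 4 brains; two-sided exact permutation test, p = 0.125, the smallest this design gives). Raw RNA UMIs went the other way, with a ratio of 1.73 and members higher in 4 of 4 brains (exact permutation p = 0.125). By kind, the median tag total was 1203 in smooth muscle-led, 1063 in fibroblast-led and 3131 in pericyte-led cells, and 3381.5 in the rest. The totals mix all 35 antibodies, so that no single surface protein can be named. These were 2 of 5 such ratios computed. The others, for detected genes, hashtag UMIs and mitochondrial share, had exact p of 0.125, 1 and 0.375, and adjusted over the 5 no p was under the threshold of 0.05.

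The share of members was compared between genotypes. Members made up 28.9, 24.3, 12.4 and 28.1% of the cluster, with 95% Wilson intervals of 23.1 to 35.6, 17.0 to 33.4, 7.22 to 20.4 and 18.1 to 40.8%, which cover counting error only. The mean was 26.6 ± 3.30% in Cx3cr1+/- and 20.2 ± 11.1% in Cx3cr1-/- brains (SD, n = 2 each), and the ranges overlapped (two-sided exact permutation p = 0.667; 2 against 2 brains cannot go below 0.333). Without Cx3cr1-/- brain 1 the direction turned, to a difference of 1.47 percentage points. Of all cells used, members were 4.21, 0.958, 0.410 and 1.03%, so that Cx3cr1+/- brain 1 stood apart (exact permutation p = 0.667). The difference of -1.86 percentage points was -0.238 without that brain and -3.49 without Cx3cr1+/- brain 2. Clusters 0 and 9, which hold Krt8, took up 12.8% of cells in Cx3cr1+/- and 49.0% in Cx3cr1-/- brains, and enter the second denominator. Their part in the result was not tested beyond leaving them out, which gave a difference of -1.71 percentage points.

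**Figure D4:**
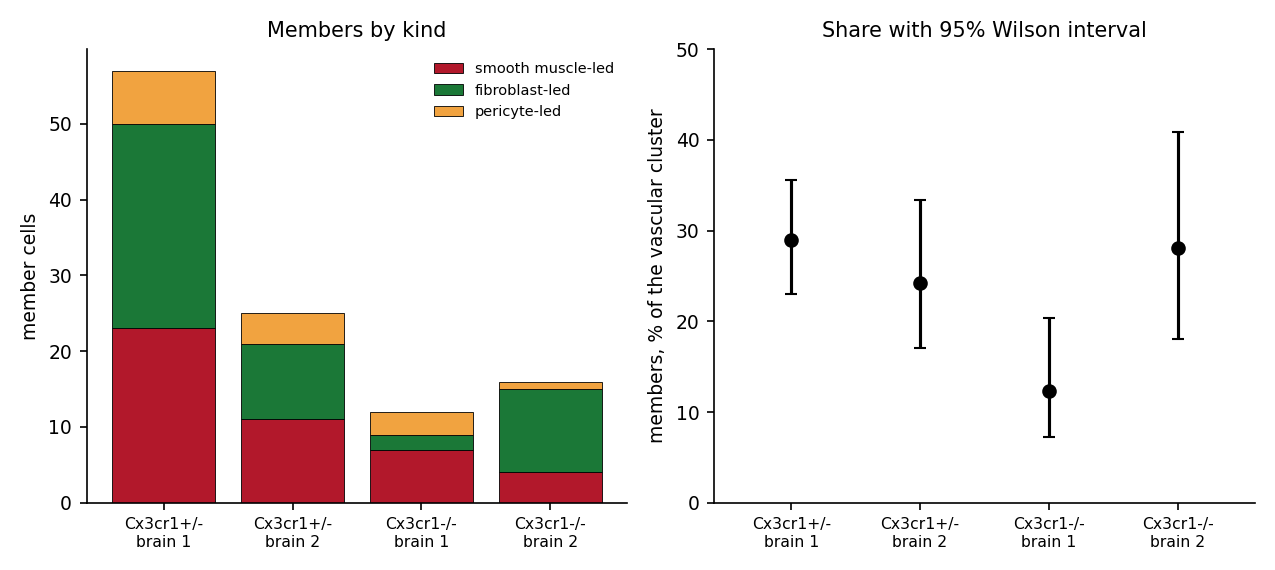
Left, bars stack the number of members of each brain by leading list (smooth muscle 23, 11, 7 and 4; fibroblast 27, 10, 2 and 11; pericyte 7, 4, 3 and 1). Right, points give members as a percent of the vascular cluster with 95% Wilson intervals; Cx3cr1-/- brain 1 is lowest at 12.4%, and its genotype partner at 28.1% lies within the range of the Cx3cr1+/- intervals.

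The mix of kinds varied between brains. Smooth muscle-led cells were 23 of 57, 11 of 25, 7 of 12 and 4 of 16 members. Fibroblast-led cells were 27, 10, 2 and 11 of the same members. The genotypes overlapped in both (exact permutation p = 1 for each), and the Cx3cr1-/- brains were the lowest and the highest for both kinds. Gene levels summed over members therefore mix kinds in different parts.

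No gene passed the genotype test. Of 9009 genes fitted with limma, the 8 rule genes were set aside, and 0 of the other 9001 had an adjusted p under 0.05, which is 0%. At an unadjusted p under 0.05 there were 544 (6.04%), 244 of them higher (2.71%) and 300 lower (3.33%) in Cx3cr1-/- members. The smallest adjusted p was 0.280. In the test of whether the genotype effect differed between members and the rest, 0 of 7708 genes passed (0%), 432 had an unadjusted p under 0.05 (5.60%), and the smallest adjusted p was 0.885. The count of called genes was 0 under 10 of 16 alternatives, 15 with members more than 0.5 above the cut and 60 in fibroblast-led members. It was 14 to 186 when 1 brain was left out, the highest without Cx3cr1-/- brain 1. With 2 brains a group these values do not show that the genotypes were alike.

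The 9 genes with the smallest p, none of them called, are given as values. Hist1h2ap, a histone of dividing cells, was at 23.1, 16.7, 190 and 260 CPM (2.97 ± 0.37 on the log2 scale, SE; limma adjusted p = 0.280). Its log2 value was 0.76 without cells that held a corrected Ptprc or Krt8 UMI and 1.68 in cells of 5000 to under 50000 raw UMIs. In members more than 0.5 above the cut it was 4.002, and Hist1h2ap was called (limma adjusted p = 0.0105). Hist1h2ap was also called in fibroblast-led members (log2 value 2.89, limma adjusted p = 0.0068) and not in smooth muscle-led members (3.93). Cd74, the invariant chain of MHC class II, was at 307, 333, 20.4 and 44.2 CPM (-3.02 ± 0.38, SE; limma adjusted p = 0.280). Its log2 value was -0.73 in smooth muscle-led members and -0.72 in members more than 0.5 above the cut. In fibroblast-led members it was -4.81, and Cd74 was called (limma adjusted p = 1.8e-05). In that set 60 of 9079 genes were called, and Cx3cr1-/- brain 1 gave only 2 cells, at 0 CPM of Cd74. S100a6, a calcium-binding protein, was at 1538, 923, 4181 and 5060 CPM (limma adjusted p = 0.370). Col5a2, a chain of type V collagen, was at 99.5, 83.3, 360 and 393 CPM (limma adjusted p = 0.438). Its log2 value was 2.43 in fibroblast-led members, where it was called (limma adjusted p = 0.0027), and 0.77 in smooth muscle-led members. In each of these genes both brains of a genotype lay on the same side of both brains of the other, as they did for 19.4% of genes upward and 18.0% downward. The other 5 genes had a limma adjusted p of 0.646. Bpgm, Lgals1, S100a4 and Lgals3 had higher values in Cx3cr1-/- members, and Egr1 lower ones.

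**Figure D5:**
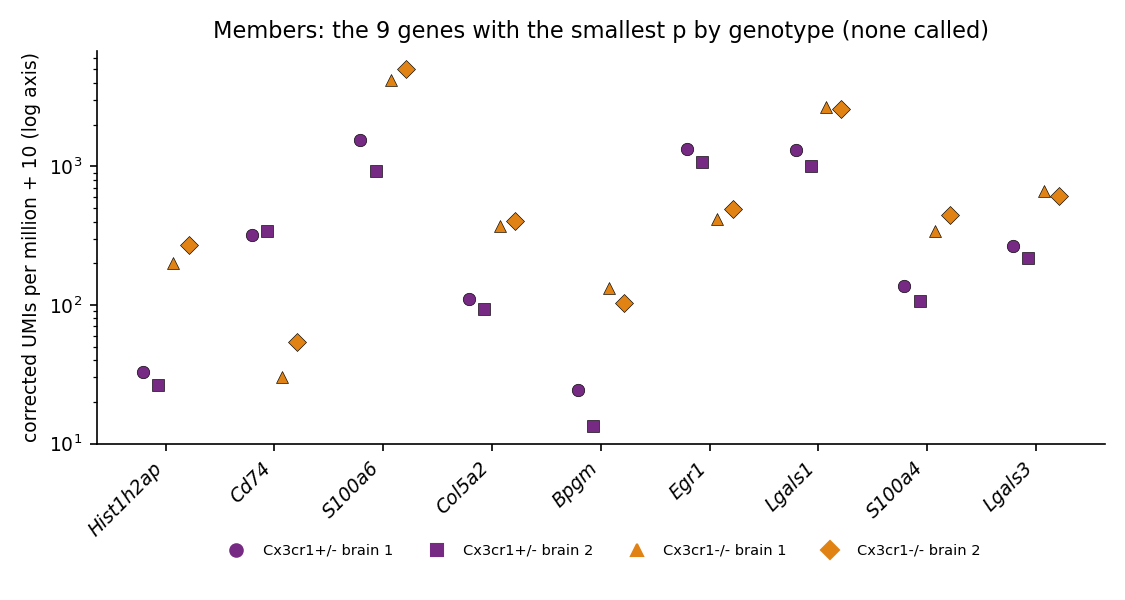
The y axis gives corrected UMIs per 1000000 + 10 on a log axis in members for the 9 genes with the smallest p by genotype; each point is 1 brain. None passed the adjusted threshold, and in each gene the 2 purple points (Cx3cr1+/-) lie on the same side of the 2 orange points (Cx3cr1-/-).

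Some lists leaned one way by genotype without a called gene. Over all genes, 3.33% were lower and 2.71% higher at an unadjusted p under 0.05. In MHC class II, 5 of 6 genes had an unadjusted p under 0.05 with lower values in Cx3cr1-/- members, and the list's median was -2.02 against -0.02 over all genes. In smooth muscle-led members the count was 0 of 3 genes and the median -0.82, and in members more than 0.5 above the cut 0 of 3 and -0.72. Over all genes in these sets, 525 of 7906 and 544 of 8114 had an unadjusted p under 0.05, in both directions together. In fibroblast-led members it was 6 of 6 and -2.74, with 3 genes called. Over all genes in that set, 683 of 9079 had an unadjusted p under 0.05 and 60 were called. Only 2 of its cells came from Cx3cr1-/- brain 1. H2-Aa was at 63.5, 103, 0 and 24.5 CPM and H2-Ab1 at 40.4, 90.0, 6.80 and 0 CPM. The 6 microglia markers summed to 384, 403, 81.6 and 162 CPM in the same members, lower in the same brains, and their part in this was not tested. In the immediate early and stress list, 13 of 24 genes had lower values at that p, with Fos, a stress-induced factor, at 3650, 2845, 1931 and 898 CPM. Mitochondrially encoded genes were lower in 9 of 13 at that p. In the list of hypoxia and glycolysis 8 of 23 were higher, with Egln3, a sensor of oxygen, at 13.0, 6.66, 61.2 and 98.2 CPM. In cells of 5000 to under 50000 raw UMIs, a range chosen after seeing the data, the lists were counted in the same directions. The counts for MHC class II, immediate early, mitochondrial and hypoxia genes were 5 of 6, 4 of 24, 1 of 13 and 0 of 23. In the opposite directions, 1 immediate early and 2 hypoxia genes met that p. Over all genes in that range it was 346 of 9065, in both directions together. The medians there were -2.19, -1.09, -0.26 and -0.04, against -2.02, -0.87, -0.57 and 0.14 in all members, so that the immediate early list had fewer genes at that p while its median moved further from 0. In the rest of the cluster these lists leaned the same way as in all members. Their medians there were -1.14 (4 genes), -0.41, -0.24 and 0.12, given without a test, against 0.002 over all genes. In the interstitial matrix list 5 of 23 genes were higher and 1 lower (median 0.69), and in the contractile list 0 of 19 in either direction. The matrix list differed by kind. In fibroblast-led members 11 of 22 were higher and 1 lower (median 1.20, 3 called). More than 0.5 above the cut it was 11 of 23 and 1 (1.32, 2 called, against 15 of 8114 over all genes). In smooth muscle-led members it was 3 of 22 and 1 (0.004). The rest of the cluster had a median of -0.83 over 14 genes.

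Median depth was higher in the members of both Cx3cr1-/- brains, and markers of other cells differed between brains. All members of 80000 raw UMIs or more, 8 cells, had a Krt8-high list mean of 0.5 or more, against 1 of the 79 members from 5000 to under 50000. Of the 9 members above 50000, 3 came from Cx3cr1+/- and 6 from Cx3cr1-/- brains, and 6 had a cycling list mean of 1 or more. Krt8 was at 40.4, 26.7, 258 and 63.8 CPM in members, and 2 of the 4 genes of that list, Epcam among them, were at 0 in all members. The 5 T cell markers summed to 18.8, 300, 408 and 19.6 CPM, high in 1 brain of each genotype, and 3 members had a T cell list mean of 1 or more. The 6 cycling markers summed to 459, 600, 1285 and 736 CPM. Their part in the genotype values was not tested.

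The depth correction sets a limit on shallow members. In 49 members the corrected table held more nonzero genes than were detected in the cell. This was true of all 22 members under 5000 raw UMIs, and 21 of these had a corrected Ptprc UMI against 10 of the other 88. A corrected value of 1 in a shallow cell therefore does not show a molecule, and no share of cells with a UMI is given.

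In naive brains the same rule found other cells, set side by side without a test because both tables were corrected separately. Naive cluster 6 held 117 cells of which 5 met the rule, all pericyte-led. Naive cluster 8 held 23 cells of which 22 met it, all smooth muscle-led. None of these 27 cells was fibroblast-led (upper bound of the 95% Wilson interval 12.5%; 3 cells, the limit that a count of 0 allows, would be 11.1%), against 50 of 110 (45.5%, 95% Wilson interval 36.5 to 54.8%) in metastasis-bearing brains. These intervals cover counting error over pooled cells only, and per brain the share was 47.4, 40, 16.7 and 68.8%. Their summed levels were 21555 CPM of Acta2, 25.8 of Dcn and 0 of Prg4. Cells with a fibroblast list mean of 1 or more did occur in naive brains, 4, 1, 4 and 12 per brain, and all 21 lay in naive cluster 1, with 6494 CPM of Dcn and 11.3 of Acta2. Such cells were 0.418, 0.186, 1.19 and 1.33% of naive cells and 2.07, 0.460, 0.103 and 0.644% of cells from metastasis-bearing brains, and these ranges overlapped. In naive brains such cells thus lay outside the clusters in which the rule was applied.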

How the data were processed

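RNA, surface tags and hashtags of 8 brains were read in 3 libraries of 1 pooled preparation. Per the submitters' processing notes, Cell Ranger 3.1, Seurat 3.1.1 and the mm10 build were used. The authors deposited RNA values as the natural log of 1 plus a depth-corrected UMI number. The exponential minus 1 was whole for every nonzero value within a relative tolerance of 1e-06, and column sums equalled the deposited totals. The deposited metadata give plain counts of raw RNA, tag and hashtag UMIs per cell, the corrected total as a signal, clusters, gates and the singlet label, which all cells carried. No further doublet call was made. Barcodes in both tables (1138) were dropped, 68 of them in the cluster.

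Corrected UMIs were summed per brain and scaled to 1000000 (CPM). Because they are not raw counts, no count model was used. Genotype (Cx3cr1-/- minus Cx3cr1+/-) was fitted with limma 3.58.1 (lmFit, eBayes with a trend; R 4.3.3) on log2(CPM + 10), for genes with a mean above 10 CPM, with Benjamini-Hochberg adjustment and a threshold of 0.05; the steps were tested on simulated data. A pseudocount of 10 understates the change of low genes. Shares were tested by exact permutation over brains, on both sides. The planned tests of single surface tags were not run, because the metadata columns used here give tag totals only. Brains are separate animals per the labels, prepared together.

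Members, marker lists and pathway lists were chosen with earlier results of these data known. Named genes are those of the rule and the given markers, the 20 genes with the highest lowest-brain ratio among those above 50 CPM in members of every brain, the 10 genes with the smallest genotype p (as fewer than 5 passed), list members by mean level, and the 10 genes most like Acta2, Col1a1 and Kcnj8; some of these are not reported here. Groups by leading list and the genes most distinct for them were chosen after the data were seen.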

Additional observations from a re-analysis of the deposited data

Results flagged for a closer look

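Among 37 values checked over the 4 brains, 2 had 1 brain far from the other three by Dixon's ratio, for which chance flags about 1 in 20. Members were 4.21% of all cells in Cx3cr1+/- brain 1, against 0.958, 0.410 and 1.03% in the others. The log2 ratio of Cldn11 between members and the rest of the cluster was 6.40 in Cx3cr1-/- brain 2, against 3.12, 3.15 and 3.59; that brain had the largest share of fibroblast-led members, 68.8%.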

How the results depend on the processing

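The count of genes called by genotype among members was 0 with a pseudocount of 1, other filters, no trend, median-ratio scaling, barcodes of both tables kept, cells with Ptprc or Krt8 left out, means over cells, cells of middle depth and smooth muscle-led members. It was 15 with members more than 0.5 above the cut, 60 in fibroblast-led members, of which Cx3cr1-/- brain 1 gave 2 cells, and from 14 (without Cx3cr1+/- brain 2) to 186 (without Cx3cr1-/- brain 1) with 1 brain left out: 19 without Cx3cr1+/- brain 1 and 184 without Cx3cr1-/- brain 2. There the lone brain was assumed to vary like the others. The genes called in all 4 of these were Cd74, Hist1h2ap and S100a6, of which Hist1h2ap was at a log2 value of 0.76 without Ptprc or Krt8 cells and Cd74 at -0.73 in smooth muscle-led members. The difference in genotype effect between members and the rest had 0 calls except without Cx3cr1-/- brain 2, with 90, so its range with 1 brain left out was 0 to 90. The difference in the cluster share ranged from -14.2 to 1.47 percentage points and that in the share of all cells from -3.49 to -0.238. The number of genes at least 2-fold above the rest in every brain was 231 to 303 against 275. Depth windows and the kinds of member were alternatives chosen after seeing the data. The cause of these shifts was not tested. No paired analysis was possible because the hashtags of the brains give no number shared between genotypes. The alternatives for single surface tags were not run. Few cells per brain (12 to 57) limit every value.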
